A study of Mus musculus with 18 samples.

Results

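Fam180a, Fam20a, C1qtnf3, Bglap2, Acot1 and Nme7 are 6 genes, none of them a muscle structural gene, that were picked from a STAC3 knockdown experiment because their array signal differed strongly between STAC3 RNAi and control RNAi cells at day 1, or differed more at day 1 than at day 0. Every probe annotated to one of them was followed, which gave 18 probes of 24538 in the authors' value table, and 6 genes of 13032 named there. Of these 18 probes, 17 passed a filter on low signal (detection p below 0.01 on at least 3 of 18 arrays), as did 18408 probes in all. For each gene the probe with the highest overall mean, its leading probe, is described first, and the others beside it.

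The cells are C2C12, a mouse myogenic line that multiplies as myoblasts in rich serum and begins to form muscle when serum is lowered. STAC3 is an SH3-domain and cysteine-rich-domain protein of the machinery that links excitation to contraction in skeletal muscle. All groups received an RNAi. STAC3 RNAi cells at day 1 (4 samples, 5 arrays) and control RNAi cells at day 1 (4 samples, 5 arrays) were taken 48 h after the RNAi and after a day in differentiation medium with 2% fetal bovine serum. STAC3 RNAi cells at day 0 (4 samples, 4 arrays) and control RNAi cells at day 0 (3 samples, 4 arrays) were taken 24 h after the RNAi, still in growth medium with 20% serum. The control was a high-GC RNAi, and 1 RNAi against STAC3 is named, so no second RNAi sequence checks the differences. The labels do not say whether replicates were separate transfections, so errors cover the spread between these samples, which may be technical. Medium and time after the RNAi change together between the days and cannot be told apart. In these bulk samples fewer cells of a type and less RNA per cell cannot be told apart either.

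The 6 genes do not form a pathway. Fam20a belongs to the FAM20 family of secretory-pathway kinases; it is a pseudokinase that assists Fam20c, the kinase that phosphorylates secreted proteins, and its loss disturbs tooth enamel. C1qtnf3 (CTRP3, cartducin) is a secreted protein of the C1q and TNF-related family, known from cartilage and fat. Bglap2 encodes osteocalcin, a small vitamin K-dependent Gla protein laid down in bone matrix by osteoblasts, and lies in a cluster of near-identical genes. Acot1 is a cytosolic thioesterase that splits long-chain acyl-CoA into fatty acid and coenzyme A, and is known as a target of the fatty acid receptor PPAR alpha in liver and heart. Nme7 is a nucleoside diphosphate kinase family member found with the gamma-tubulin ring complex, which nucleates microtubules. The function of Fam180a, which encodes a predicted secreted protein, is little described.

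Values are the authors' normalised log2 signals, called levels here, and a difference between groups is given on the same log2 scale with its standard error (SE) from a limma fit over the 4 groups and 15 samples. Since the genes were chosen on the differences between STAC3 RNAi and control RNAi cells, these differences are descriptions and carry no test. On this scale the detection level lies between 6.86 and 6.88. Low signals are compressed: between the 25th and 50th percentiles a level moves by only 0.545 to 0.713 for each unit of log2 intensity, so differences of dim probes come out too small. Stac3 itself stood at 6.74, 6.74, 6.70 and 6.81 in STAC3 RNAi cells and at 7.53, 7.69, 7.52 and 7.97 in control RNAi cells at day 1. At day 0 its levels were 6.70, 6.68, 6.79 and 6.75 in STAC3 RNAi cells and 7.04, 6.98 and 7.15 in control RNAi cells. All 8 STAC3 RNAi samples were under the detection level, and no control RNAi sample was. The 18 arrays fall into 12 with a higher and 6 with a lower raw background, and each set holds arrays of all 4 groups.

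Of the 6 genes, 4 were higher in STAC3 RNAi cells than in control RNAi cells at day 1, and 2 were lower. Fam180a and Acot1 showed the largest higher levels, at 4.89-fold and 2.97-fold, and C1qtnf3 and Nme7 the lower ones, at 4.56-fold and 4.48-fold. By their leading probes the STAC3 RNAi and control RNAi samples of day 1 did not overlap for any of the 6 genes, which the choice of the genes sets. Of all kept probes, 28.2% had groups that did not overlap in this comparison, 14.5% with the STAC3 RNAi cells higher and 13.7% with them lower.

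**Figure D1:**
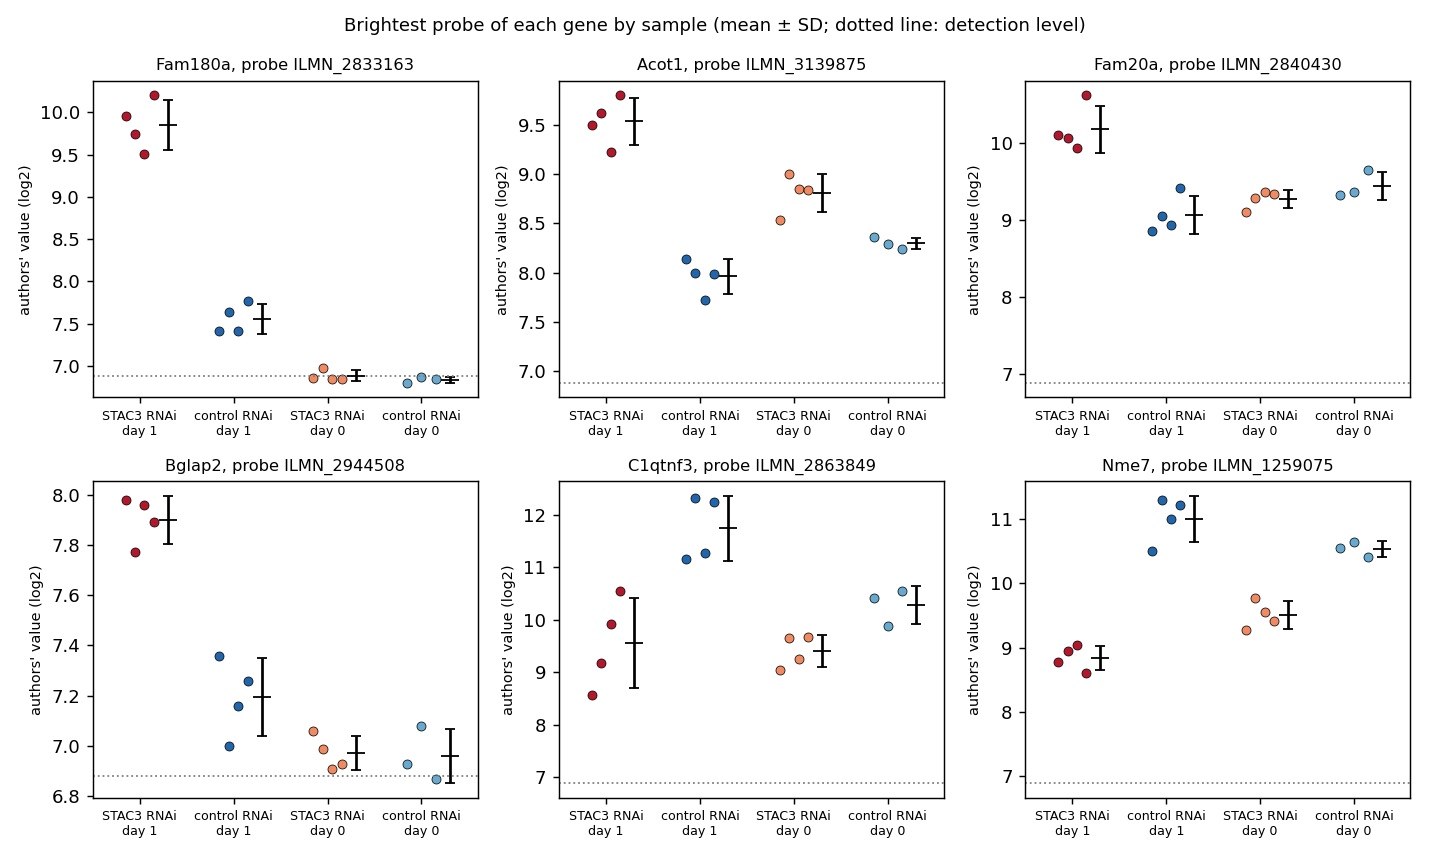
Level of the leading probe of each gene (vertical axes, authors' normalised log2 value; scales differ between panels) in every sample of the 4 groups, with mean ± SD to the right of the points and the detection level as a dotted line. At day 1 all STAC3 RNAi samples lie above the control RNAi samples for Fam180a, Acot1, Fam20a and Bglap2, and below them for C1qtnf3 and Nme7.

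Fam180a (probe ILMN_2833163) had levels of 9.96, 9.74, 9.51 and 10.20 in STAC3 RNAi cells and 7.41, 7.64, 7.42 and 7.77 in control RNAi cells at day 1. At day 0 they were 6.86, 6.98, 6.85 and 6.85 in STAC3 RNAi cells and 6.80, 6.87 and 6.85 in control RNAi cells. The gene was thus at or under the detection level in growth medium, with 3 of 4 STAC3 RNAi samples and all 3 control RNAi samples below it, and was measurable in every day 1 sample. At day 1 the means were 9.85 ± 0.30 in STAC3 RNAi cells and 7.56 ± 0.18 in control RNAi cells (SD, n = 4 each), a difference of 2.29 (SE 0.12). The day 0 difference was 0.05 (SE 0.13), between values that are mostly undetected. The other probe, ILMN_2771760, gave 1.89 (SE 0.13) at day 1 and 0.06 at day 0, where its groups did not overlap but every sample was under the detection level. The probes were detected on 11 and 10 of 18 arrays.

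Acot1 (ILMN_3139875) stood at 9.50, 9.62, 9.23 and 9.80 in STAC3 RNAi cells and at 8.14, 8.0, 7.72 and 7.99 in control RNAi cells at day 1. Its day 0 levels were 8.54, 9.0, 8.85 and 8.84 in STAC3 RNAi cells, against 8.36, 8.29 and 8.24 in control RNAi cells. By leading probes this thioesterase gene was the one among the 4 higher genes whose samples were also apart at day 0. The difference was 1.57 (SE 0.12) at day 1 and 0.51 (SE 0.13) at day 0. In level, the order was STAC3 RNAi at day 1, STAC3 RNAi at day 0, control RNAi at day 0 and control RNAi at day 1, and no neighbouring groups in that order overlapped. The dimmer probe ILMN_3062267 gave 0.60 (SE 0.06) at day 1 and 0.23 at day 0.

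Fam20a (ILMN_2840430) had day 1 levels of 10.11, 10.06, 9.93 and 10.62 in STAC3 RNAi cells and 8.86, 9.05, 8.93 and 9.41 in control RNAi cells. At day 0 it had 9.10, 9.28, 9.37 and 9.34 in STAC3 RNAi cells and 9.32, 9.36 and 9.65 in control RNAi cells. Replicate 4 was the highest sample of both day 1 groups, and the day 0 groups overlapped each other and the control RNAi cells of day 1. The difference was 1.12 (SE 0.14), or 2.17-fold, at day 1 and -0.17 (SE 0.15) at day 0. With probe ILMN_1218877 the day 1 difference was 0.58 (SE 0.09) and that at day 0 was 0.06.

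Bglap2 has a single probe, ILMN_2944508, detected on 16 of 18 arrays. It read 7.98, 7.77, 7.96 and 7.89 in STAC3 RNAi cells and 7.36, 7.0, 7.16 and 7.26 in control RNAi cells at day 1, then 7.06, 6.99, 6.91 and 6.93 in STAC3 RNAi cells and 6.93, 7.08 and 6.87 in control RNAi cells at day 0. The osteocalcin signal was therefore low in all groups and close to the detection level at day 0. At day 1 the difference was 0.70 (SE 0.08), or 1.63-fold, the smallest among the leading probes, and at day 0 it was 0.01 (SE 0.08). The adjoining gene Bglap was detected on fewer than 3 arrays, and the probe's own sequence was not used here, so how far it reads the other cluster members was not tested.

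C1qtnf3 (ILMN_2863849) varied most between replicates. Its day 1 levels were 8.57, 9.18, 9.92 and 10.55 in STAC3 RNAi cells and 11.16, 12.32, 11.27 and 12.24 in control RNAi cells. Day 0 levels were 9.04, 9.65, 9.26 and 9.68 in STAC3 RNAi cells and 10.42, 9.88 and 10.55 in control RNAi cells. The STAC3 RNAi samples of day 1 spanned 1.98, wider than the 4 control RNAi samples, which spanned 1.16, and they overlapped both day 0 groups. The difference between STAC3 RNAi and control RNAi cells was -2.19 (SE 0.36) at day 1 and -0.88 (SE 0.39) at day 0. The other probes agreed in sign and size, with ILMN_2593034 at -2.01 and ILMN_2760318 at -2.10 at day 1, and at -0.78 and -0.73 at day 0.

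Nme7 (ILMN_1259075) had levels of 8.78, 8.94, 9.04 and 8.61 in STAC3 RNAi cells and 10.50, 11.30, 11.01 and 11.22 in control RNAi cells at day 1. At day 0 it had 9.28, 9.78, 9.55 and 9.41 in STAC3 RNAi cells and 10.56, 10.65 and 10.41 in control RNAi cells. STAC3 RNAi and control RNAi samples were apart on both days, and of neighbouring groups in the order of levels only the control RNAi cells of day 1 and day 0 overlapped. By this probe the difference was -2.17 (SE 0.15) at day 1 and -1.03 (SE 0.16) at day 0. ILMN_2510694 gave -1.85 at day 1 and -0.92 at day 0, and ILMN_1214703 gave -1.20 and -0.64.

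The other 4 kept Nme7 probes did not share this. Their day 1 differences were 0.42 for ILMN_1246498, 0.00 for ILMN_1220095, -0.05 for ILMN_2635105 and -0.06 for ILMN_2630618, and at day 0 they lay between -0.06 and 0.10. The probe ILMN_1256136 was detected on 1 array and was dropped by the filter. The lower Nme7 signal thus rests on 3 of 8 probes. In RefSeq (GRCm38.p6, chromosome 1) Nme7, on the plus strand, overlaps Atp1b1 on the minus strand, the gene of the beta-1 subunit of the sodium and potassium pump. The probe of Atp1b1, ILMN_2767615, averaged 7.92 ± 0.20 in STAC3 RNAi cells and 9.53 ± 0.26 in control RNAi cells at day 1 (SD, n = 4 each). Atp1b1 fell by 1.61 at day 1 (SE 0.12, limma adjusted p = 1.43e-07) and by 0.80 at day 0 (adjusted p = 0.000739). Over the 15 samples, which include the group differences, its level had a Pearson r of 0.958 to 0.985 with the 3 lower Nme7 probes. With the other 4 the r was -0.844 to 0.259. The Nme7 probes were split by their day 1 difference, a comparison in which Atp1b1 differs too. The gap in r therefore follows largely from the split and does not show which transcript a probe reads. Probe sequences were not used here, and which transcript the 3 probes read was not tested.

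**Figure D2:**
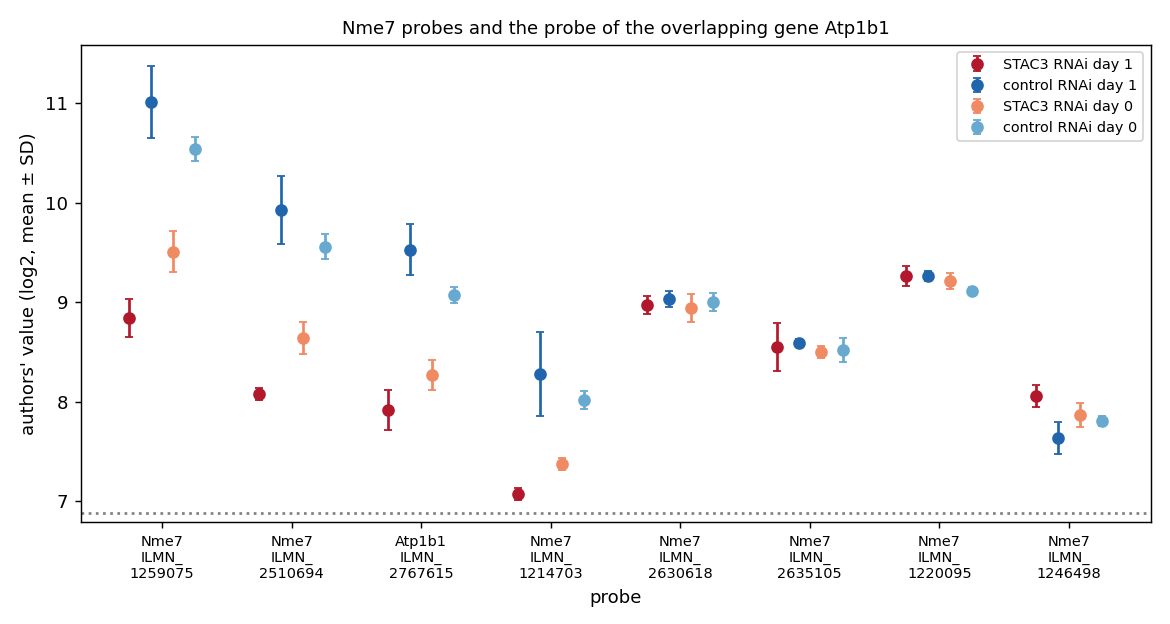
Mean level ± SD (authors' normalised log2 value) of the 7 kept Nme7 probes and of the Atp1b1 probe in the 4 groups; the dotted line is the detection level. In 3 Nme7 probes, as in Atp1b1, both STAC3 RNAi groups lie below the control RNAi groups, while in the other 4 Nme7 probes the 4 means lie within 0.42 of each other.

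At day 0 the leading probes of Acot1 (higher) and of C1qtnf3 and Nme7 (lower) had groups that did not overlap, and those of Fam180a, Fam20a and Bglap2 overlapped, where 27.1% of all kept probes had groups apart (14% with STAC3 RNAi cells higher, 13.1% with them lower). These values had a part in the choice of the genes and are given as a description. The day 0 difference was smaller than its SE for Fam180a and Bglap2, whose day 0 signals lie at or near the detection level. It was -0.17 (SE 0.15) for Fam20a. For Acot1 (0.51, SE 0.13), C1qtnf3 (-0.88, SE 0.39) and the leading probe of Nme7 (-1.03, SE 0.16) it lay on the same side as at day 1, with groups apart. The label of a change mainly at day 1 describes these genes less well. The excess of the day 1 difference over the day 0 difference was 2.24 for Fam180a, 1.29 for Fam20a, 1.06 for Acot1 and 0.69 for Bglap2. For C1qtnf3 it was -1.31, and for Nme7 -1.13. Over all 17 kept probes, 8 were apart and higher, 6 apart and lower and 3 overlapped at day 1. The day 0 counts were 4, 6 and 7. Of all kept probes of the series, 28.2% were apart at day 1 and 27.1% at day 0. Nme7 alone gives 7 of the 17 probes and C1qtnf3 gives 3, so these are not counts of separate genes. The choice of the genes largely sets the day 1 counts.

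**Figure D3:**
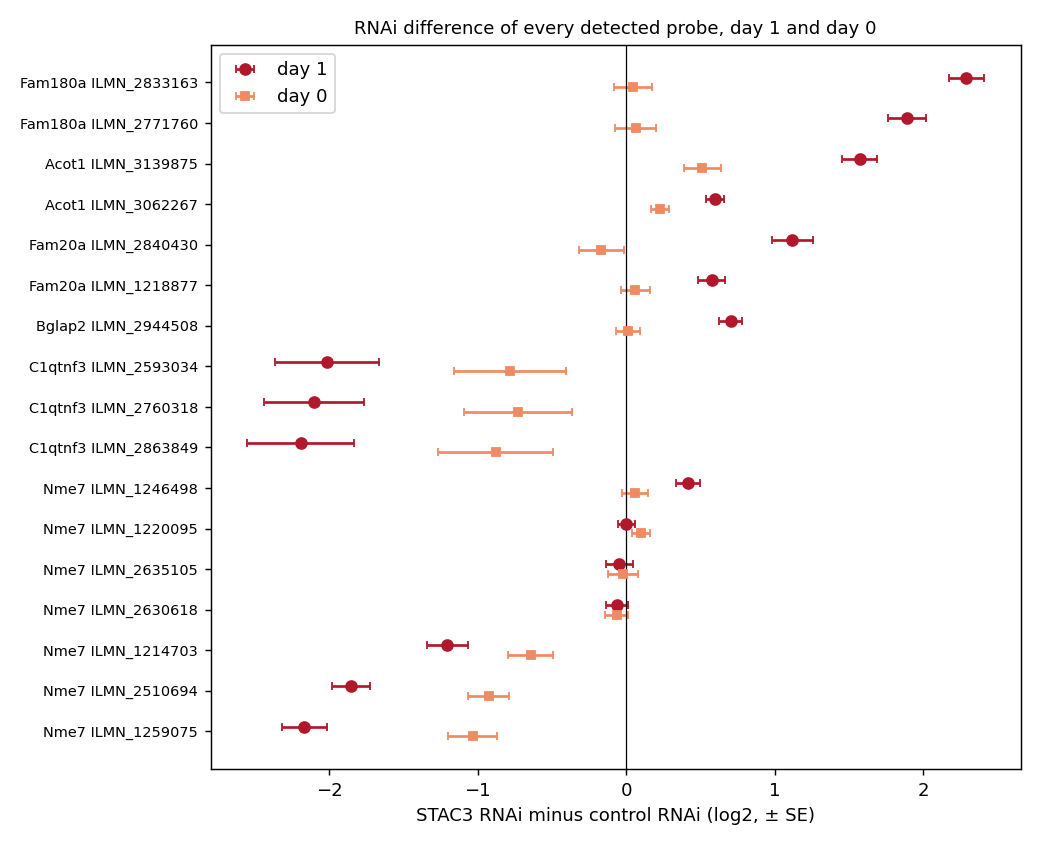
STAC3 RNAi minus control RNAi (horizontal axis, log2, ± SE) for each of the 17 kept probes at day 1 (circles) and day 0 (squares). Day 0 differences of Fam180a, Fam20a and Bglap2 lie near 0, those of C1qtnf3, Acot1 and 3 Nme7 probes lie on the same side as at day 1, and 3 Nme7 probes lie near 0 on both days.

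The day 1 differences of the leading probes had the same sign in both array sets. Each lay farther from 0 in the set of higher background, most for Acot1, C1qtnf3 and Nme7 and by little for Fam180a and Bglap2. The choice of the genes on these same arrays largely sets the shared sign. Among the 12 arrays of higher background the day 1 difference was 2.37 for Fam180a, 1.79 for Acot1, 1.20 for Fam20a, 0.73 for Bglap2, -2.57 for C1qtnf3 and -2.37 for Nme7. Among the 6 of lower background, with 2 arrays a group at day 1 and 3 arrays that repeat samples of the other set, it was 2.29 for Fam180a, 1.34 for Acot1, 1.03 for Fam20a, 0.72 for Bglap2, -1.88 for C1qtnf3 and -1.89 for Nme7. The Nme7 probes ILMN_1214703 (-1.43 in the set of higher background and -0.88 in the other) and ILMN_1246498 (0.55 and 0.26) differed more between the sets. The deposited non-normalized table, taken by its column names, which do not match the value table for 12 of 18 arrays, gave smaller day 1 differences of the same sign by leading probes, namely 1.28 for Fam180a, 0.28 for Acot1, 0.18 for Fam20a, 0.56 for Bglap2, -1.17 for C1qtnf3 and -0.54 for Nme7.

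The change over the first day in differentiation medium was examined within each RNAi. These tests share their samples with the comparison on which the genes were chosen, so they are not independent of the choice. Fam180a is left out of the tests, because its probes passed the filter on low signal through the day 1 arrays, where they are high, and so had to differ between the days. Of the other 5 leading probes, 3 rose and 1 fell in STAC3 RNAi cells at day 1 against day 0, where 41.4% of all kept probes passed in this comparison, 20.7% higher and 20.8% lower at day 1. Bglap2 rose by 0.93 (SE 0.08, limma adjusted p = 1.04e-07), Fam20a by 0.90 (SE 0.14, adjusted p = 7.74e-05) and Acot1 by 0.73 (SE 0.12, adjusted p = 1.08e-04). By its leading probe Nme7 fell by 0.67 (SE 0.15, adjusted p = 0.00206). ILMN_2510694 fell by 0.56 (adjusted p = 0.00221), and ILMN_1214703 did not pass (-0.305, adjusted p = 0.0962). The other 4 kept Nme7 probes did not pass either, at 0.03 to 0.19. C1qtnf3, at 9.56 ± 0.86 on day 1 and 9.41 ± 0.31 on day 0 (SD, n = 4 each), differed by 0.15 (SE 0.36), and its adjusted p was 0.787. The levels of Fam180a in STAC3 RNAi cells were 9.85 ± 0.30 at day 1 and 6.89 ± 0.07 at day 0 (SD, n = 4 each), with 3 of the 4 day 0 samples under the detection level. The second Fam20a probe passed by little (0.24, adjusted p = 0.0422), and leaving out any one of replicates 1, 2 and 4 of day 0 or 2 and 4 of day 1 in STAC3 RNAi cells ended that call, with differences of 0.186 to 0.252.

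In control RNAi cells the pattern was another. C1qtnf3 rose by 1.46 (SE 0.39, limma adjusted p = 0.00755), with 11.75 ± 0.62 at day 1 (SD, n = 4) and 10.29 ± 0.36 at day 0 (SD, n = 3), and its other probes rose by 1.28 each. Fam180a, not tested here, was at least 1.6-fold higher at day 1 by its leading probe and at least 1.32-fold by ILMN_2771760. No day 0 sample reached 6.88, the upper end of the detection level, by either probe. Bglap2 passed at 0.23 (adjusted p = 0.0363) and Nme7 at 0.47 (adjusted p = 0.0349), so that 3 of the 5 leading probes tested rose and 0 fell, where 35.8% of all kept probes passed, 17.7% higher and 18.1% lower at day 1. Of the other kept Nme7 probes only ILMN_2510694 passed, at 0.37 (adjusted p = 0.0484). The calls of Bglap2 and Nme7 were frail: Bglap2 failed without any one of day 0 replicates 2 and 4 or day 1 replicates 1, 3 and 4 of the control RNAi cells (0.179 to 0.245), and Nme7 failed without any one of their day 0 replicates 2, 3 and 4 or day 1 replicates 2, 3 and 4 (0.368 to 0.519). The C1qtnf3 probes ILMN_2593034 and ILMN_2760318 missed the threshold without day 0 replicate 3, at 1.224 (adjusted p = 0.052) and 1.057 (adjusted p = 0.0679).

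Fam20a and Acot1 had lower levels at day 1 in control RNAi cells without passing, by leading probes. Fam20a differed by -0.38 (SE 0.15, limma adjusted p = 0.0609), and with the replicate number as a block by -0.33 (adjusted p = 0.017). Its other probe passed at -0.27 (adjusted p = 0.0387) and failed with the block (-0.25, adjusted p = 0.0638). That call was lost in 11 of 16 alternatives, and the sign changed in 1 more. The leading Fam20a probe passed in 6 of 16 alternatives, among them without control RNAi day 1 replicate 4, at -0.498 (adjusted p = 0.014). Acot1 differed by -0.33 (SE 0.13, adjusted p = 0.0528). It passed in 5 of 16 alternatives, among them without control RNAi day 1 replicate 1, at -0.389 (adjusted p = 0.0333). The Nme7 probe ILMN_1246498, at -0.169, passed with the block, at -0.214 (adjusted p = 0.0175).

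**Figure D4:**
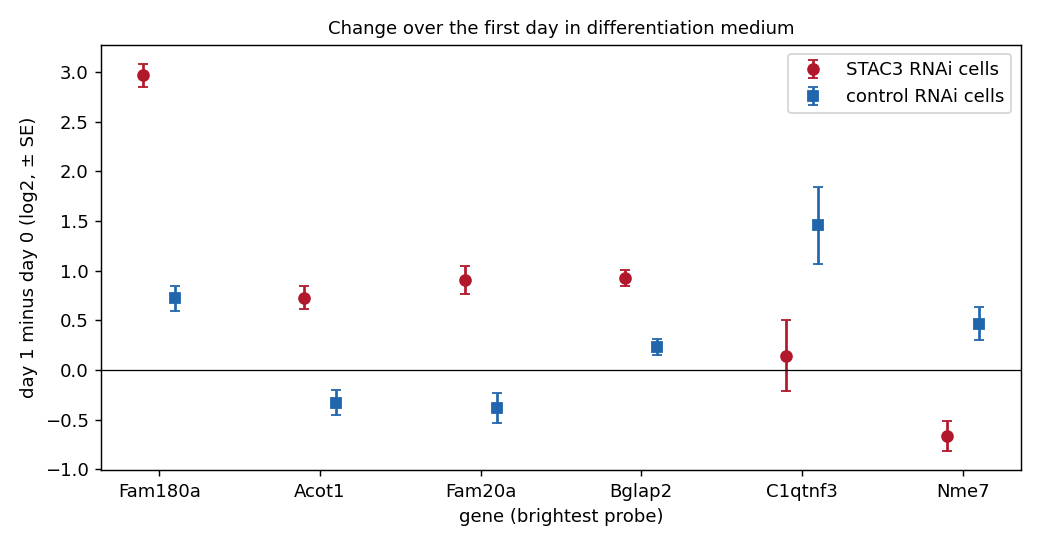
Day 1 minus day 0 (vertical axis, log2, ± SE) of the leading probe of each gene in STAC3 RNAi cells (circles) and control RNAi cells (squares). Fam180a, Acot1, Fam20a and Bglap2 lie higher in STAC3 RNAi cells, and C1qtnf3 and Nme7 lie higher in control RNAi cells.

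The genes whose levels ran closest to each member over the 15 samples differ between members. The likeness is a Pearson r over all 4 groups and so includes the group differences. Fam180a was nearest to Eva1b (r = 0.987), Zfp874b (0.985) and Shc1 (0.984), whose day 1 differences were 1.07, 0.38 and 0.47. Bglap2 was nearest to Uba7 (0.972), Nfatc4 (0.964), a calcineurin-regulated transcription factor, and Fam180a itself (0.961). Acot1 was nearest to Egfr (0.958), the epidermal growth factor receptor, Fam131b (0.956) and Pfn2 (0.950), and Egfr differed by 1.38 at day 1 and 0.50 at day 0. Fam20a had the loosest neighbours, Arhgef4 (0.921), H4c8 (0.915) and Wtip (0.904). C1qtnf3 was nearest to Ddc (0.957), Zfp346 (0.939) and Nrap (0.939), a muscle actin-binding protein gene. Nme7 was nearest to Atp1b1 (0.985), Tmem201 (0.974) and Rrbp1 (0.971).

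The relatives of the 6 genes were then counted, members left out, against all kept probes. Of those, 33.1% passed at day 1 at a limma adjusted p below 0.05, 16.8% higher and 16.2% lower in STAC3 RNAi cells, with a median difference of 0.009. Among 8 measured FAM20 and secretory kinases 3 rose and 2 fell, with a median of 0.13. Fam20c rose by 0.45 (adjusted p = 1.96e-05), Pkdcc, a secreted tyrosine kinase, by 0.40, and Gask1b by 0.30. Fam20b, a xylose kinase of proteoglycan synthesis, fell by 0.22 (adjusted p = 0.0468), and Dipk2a fell by 0.34. None of the 8 passed at day 0, where 12.5% of all kept probes did, 6.7% higher and 5.79% lower.

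In the C1q and TNF-related family 2 of 12 measured genes rose and 2 fell at day 1, with a median of 0.06. C1qtnf12 (0.59, limma adjusted p = 1.69e-05) and C1qtnf1 (0.40, adjusted p = 0.00321) rose, while C1qtnf3 was lower. Emilin1, an elastic fibre glycoprotein, fell by 0.47 and the adiponectin receptor Adipor1 by 0.46. C1qtnf6 was at -0.16 (adjusted p = 0.0518). Of 9 measured Gla proteins and vitamin K cycle genes 1 rose and 3 fell, with a median of -0.18. Mgp, the matrix Gla protein that holds back calcification, rose by 0.76 (adjusted p = 5.29e-04). Pros1, the anticoagulant protein S, fell by 1.04 (adjusted p = 4e-08), Ggcx, the enzyme that makes Gla residues, fell by 0.43, and Tgfbi fell by 0.37.

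Among 11 acyl-CoA thioesterases 3 rose and 4 fell at day 1, with a median of -0.01. Acot2, the mitochondrial paralog that adjoins Acot1 on chromosome 12, was at -0.01 (limma adjusted p = 0.93), Acot7 rose by 0.40, and Them6 (-0.63), Acot13 (-0.41) and Ppt1 (-0.40) fell. Of 20 other PPAR target genes of fatty acid use 3 rose and 5 fell, with a median of -0.07. Ppard, a receptor of that pathway, rose by 0.64 (adjusted p = 3.25e-05). Fabp3, the fatty acid binding protein of muscle, fell by 1.47 (adjusted p = 1.29e-05), Angptl4 by 0.85 and the acyl-CoA dehydrogenase Acadm by 0.50.

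Of 11 other nucleoside diphosphate and nucleotide kinases 2 rose and 4 fell at day 1, with a median of -0.08. Nme2 rose by 0.28 (limma adjusted p = 0.024), Nme1 was at -0.15 (adjusted p = 0.0759), and Ak1, the adenylate kinase of muscle, fell by 0.63, Nme4 and Ak4 by 0.50 each and Guk1 by 0.33. In the gamma-tubulin ring complex and its partners 2 of 16 rose and 1 fell, with a median of -0.04, and the passing genes were Haus8 (0.28), Nedd1 (0.24) and Mzt2 (-0.18). At day 0 4 of these 16 rose and 0 fell, with a median of 0.10 (Haus8 0.47, Haus5 0.46, Nedd1 0.34, Tubgcp2 0.28), where 6.7% of all kept probes were higher. Among the 11 nucleoside kinases 1 rose and 3 fell at day 0, where 12.5% of all kept probes passed in either direction. Of the 20 PPAR target genes 1 rose and 2 fell at day 0, and of the 12 C1q and TNF-related genes 1 rose. Of the 9 Gla and vitamin K genes 1 fell, and of the 11 thioesterases 0 passed. Fam180b, Bglap3, Acot3 and Acot4 have no probe named in the table used.

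**Figure D5:**
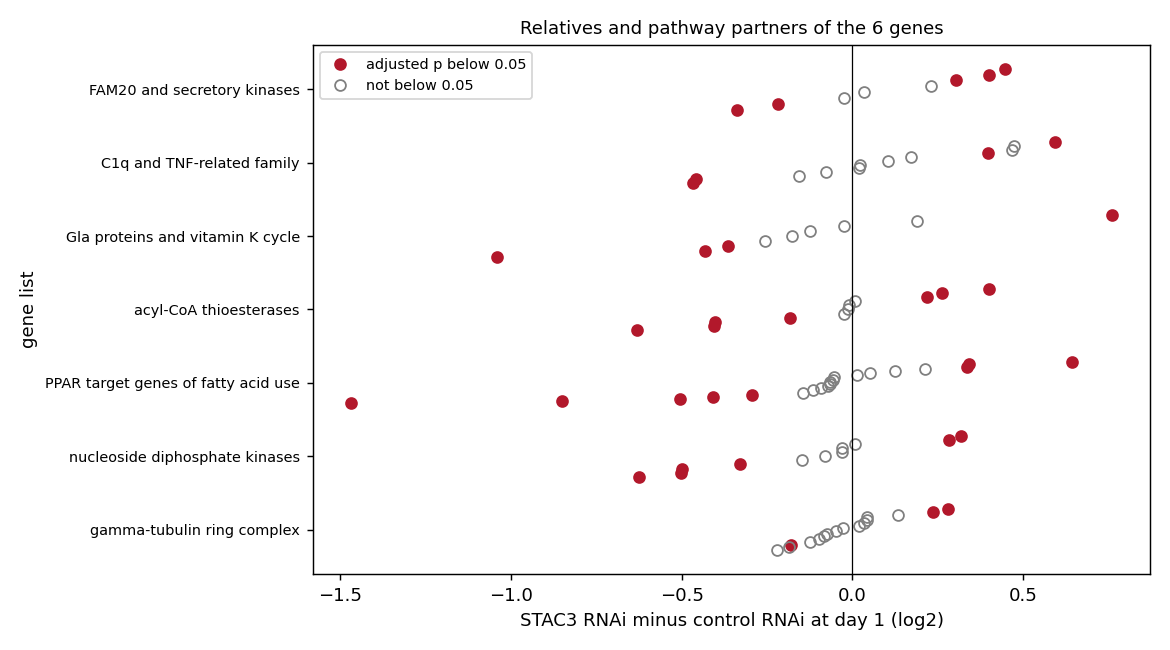
STAC3 RNAi minus control RNAi at day 1 (horizontal axis, log2) for the relatives of the 6 genes, each point 1 gene by its leading probe, filled where the limma adjusted p was below 0.05. Filled points lie on both sides of 0 in all 7 lists, with Fabp3 (-1.47) and Pros1 (-1.04) farthest to the left.

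Marker genes of other cell types were read beside these values, because several of the 6 genes are known from bone, cartilage or fat. Of all kept probes, 16.8% passed as higher and 16.2% as lower in STAC3 RNAi cells at day 1. At day 0 these shares were 6.7% and 5.79%. Of 20 osteoblast markers 9 were measured. At day 1 Dlx3 rose (0.73) and Sparc fell (-0.53), none of the 9 passed at day 0, and Alpl, Dlx5, Bglap, Pth1r and Sost were not detected. The summed osteoblast signal of day 1 ran between 16580 and 20270 in STAC3 RNAi cells and between 22396 and 24939 in control RNAi cells, and that of day 0 between 16669 and 18840 in STAC3 RNAi cells and between 17985 and 19687 in control RNAi cells. Sparc alone made up 68.5% to 75.2% of the day 1 sum in STAC3 RNAi cells and 80.7% to 82.9% in control RNAi cells, and without it the day 1 sum was 4648 to 5576 in STAC3 RNAi cells and 3827 to 4818 in control RNAi cells. Of chondrocyte markers 2 of 10 were measured and neither passed, with Col2a1, Comp, Col9a1 and Col10a1 not detected. Of adipocyte markers 4 of 10 were measured and Lpl rose (1.08), with Adipoq and Retn not detected. Of fibroblast markers 4 of 6 measured rose at day 1 (Pdgfra 0.93, Dpt 0.92, Dcn 0.76, Pi16 0.28) and their summed signal was 5204 to 8563 in STAC3 RNAi cells and 2344 to 5063 in control RNAi cells. At day 0 this sum was 892 to 1004 in STAC3 RNAi cells and 855 to 864 in control RNAi cells. Dcn made up 81.1% to 85.8% of the day 1 sum in STAC3 RNAi cells and 70.2% to 84.6% in control RNAi cells, and without it the day 1 sum was 985 to 1214 in STAC3 RNAi cells and 693 to 781 in control RNAi cells. All 8 measured skeletal muscle markers fell at day 1 (Myf5 was not detected), with summed signals of 17291 to 22805 in STAC3 RNAi cells and 33309 to 47614 in control RNAi cells. At day 0 those sums were 10929 to 12519 in STAC3 RNAi cells and 14173 to 16239 in control RNAi cells, and 2 of the 8 fell. What part these markers have in the levels of the 6 genes was not tested.

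The promoters of the 2 genes with the largest higher and the 2 with the largest lower day 1 differences are shown because the myogenic factors of the MyoD family, which drive C2C12 differentiation, bind E-boxes. Each is the 250 bases before the RefSeq start (GRCm38.p6), read 5′ to 3′ on the gene's strand, with every E-box (CANNTG, the same on both strands) in capitals. Fam180a lies at chr6:35326142-35326391 on the minus strand, Acot1 at chr12:84009252-84009501, C1qtnf3 at chr15:10952082-10952331 and Nme7 at chr1:164307422-164307671, the last 3 on the plus strand.
Fam180a: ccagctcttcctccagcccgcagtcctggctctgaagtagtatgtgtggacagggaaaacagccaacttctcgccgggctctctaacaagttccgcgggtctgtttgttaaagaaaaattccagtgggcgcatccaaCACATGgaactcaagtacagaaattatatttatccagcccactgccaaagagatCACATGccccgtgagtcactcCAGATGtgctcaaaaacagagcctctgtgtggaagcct
Acot1: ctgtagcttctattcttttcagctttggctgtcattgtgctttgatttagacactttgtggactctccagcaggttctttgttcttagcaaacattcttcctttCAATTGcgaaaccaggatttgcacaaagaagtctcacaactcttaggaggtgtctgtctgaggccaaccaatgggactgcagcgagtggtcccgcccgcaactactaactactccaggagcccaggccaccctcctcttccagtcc
C1qtnf3: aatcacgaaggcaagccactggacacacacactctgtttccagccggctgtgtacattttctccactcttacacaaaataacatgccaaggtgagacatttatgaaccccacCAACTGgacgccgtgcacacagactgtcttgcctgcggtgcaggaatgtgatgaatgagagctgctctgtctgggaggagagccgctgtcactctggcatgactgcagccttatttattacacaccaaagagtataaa
Nme7: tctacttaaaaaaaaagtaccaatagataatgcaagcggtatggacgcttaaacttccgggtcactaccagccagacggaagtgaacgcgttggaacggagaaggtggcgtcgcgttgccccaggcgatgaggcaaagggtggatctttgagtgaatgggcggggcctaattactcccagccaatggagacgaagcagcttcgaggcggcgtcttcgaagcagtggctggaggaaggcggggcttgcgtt
The Fam180a window holds 3 E-boxes, CACATG at -113 and -59 and CAGATG at -38 from the start. Acot1 has 1 (CAATTG at -146), C1qtnf3 has 1 (CAACTG at -138), and the Nme7 window has 0. At least 1 CANNTG is present in 66.2% of 32851 promoters of this length, so its presence does not set these genes apart. The Fam180a window also holds TGAGTCA at -48, a match to TGANTCA (searched on both strands), which 6.75% of the promoters have, and that of C1qtnf3 has TATAAA at -6, found in 12.4% on either strand. CAGCTG, present in 13% of promoters, is in none of the 5 member windows available. The Fam20a window, not shown, has a CAGGTG at -111, and for Bglap2 no window was used here. These matches are letters in a sequence, and binding was not measured.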

How the data were processed

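Expression was measured on 18 Illumina bead arrays of 15 C2C12 samples. Per the file headers, the deposited non-normalized table holds an average bead intensity and a detection p-value for 45281 probes. The authors' value table holds log2 values of 24538 of them, normalized with lumi per the submitters' processing notes; neither version nor settings are stated in the sources used here. That the scale is log2 follows from the deposited values, since between the 90th and 99th percentiles they move by 0.978 to 1.022 per unit of log2 intensity.

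The value table was used because 12 of 18 column names of the non-normalized table do not match it. Each column ranks the probes exactly as 1 column of the other table does, but for 12 that column has another name. In the value table each of the 3 repeat arrays correlates best with its named partner (r of 0.9949, 0.9955 and 0.9956), and in the non-normalized table it does not (r of 0.9706, 0.9893 and 0.9667). No column was reassigned, and the detection p-values were counted over arrays, so names play no part in the filter.

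Repeat arrays were averaged. A probe was kept when its detection p-value was under 0.01 on 3 or more arrays (18408 probes). A linear model with a mean for each of the 4 groups was run with limma 3.58.1 (lmFit, eBayes; R 4.3.3), with Benjamini-Hochberg adjustment over all kept probes and a pass at an adjusted p below 0.05. The fit was tested on simulated data. Each array detected 15146 to 16802 probes; the number of arrays limits precision. The summed signals of marker lists are sums of 2 raised to the log2 value.

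Members, lists and rules were chosen with earlier results of these data known. The rule names all 6 genes and probes, the 3 genes with the highest r to each, up to 4 passing genes of each list by size, and the closest paralogs. Gene names come from the platform annotation (20685 probes with 1 symbol, 8 with several, 3845 with none). Deviations of same-numbered samples correlated weakly in control RNAi cells over the days (0.131, 0.21 and 0.226). In the other comparisons at least 1 pair fell below 0.1, though others reached 0.392 at day 1 and 0.492 at day 0. Whether the numbers pair samples was thus not settled, and the main fit does not use them. Alternatives were the non-normalized table with neqc, other filters, the first array only, a block for replicate or array set, only the groups compared, and each replicate left out. The promoter sequences and gene positions are from RefSeq (GRCm38.p6), which gave windows for 5 of the 6 genes by symbol.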

Additional observations from a re-analysis of the deposited data

Results flagged for a closer look

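Fam180a had 1 sample apart from its group at day 0. Replicate 2 of the STAC3 RNAi cells read 6.98 by probe ILMN_2833163 while the others read 6.85 to 6.86, a gap of 0.899 of the range. That sample was the one above the detection level in its group. It was the single such sample in 51 groups of 4, and chance marks about 1 group in 20.

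Acot1 differed between the days in opposite directions in STAC3 RNAi and control RNAi cells. By both probes every day 1 sample lay above every day 0 sample in STAC3 RNAi cells. In control RNAi cells every day 1 sample lay below every day 0 sample by both probes. The days are separate samples. The share of all kept probes with such a separation is not given here, so how unusual it is cannot be told. By limma adjusted p below 0.05, 41.4% of all kept probes passed over the day in STAC3 RNAi cells and 35.8% in control RNAi cells. The day 1 minus day 0 difference of ILMN_3139875 was 0.728 in STAC3 RNAi cells and -0.33 in control RNAi cells. By ILMN_3062267 it was 0.304 in STAC3 RNAi cells and -0.067 (SE 0.063) in control RNAi cells. The control RNAi difference did not pass with either probe (limma adjusted p = 0.0528 and 0.462). The difference between the 2 was not tested, since the genes were chosen on it.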

How the results depend on the processing

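The day 1 differences of the 6 leading probes kept their sign under each alternative run, of which the filter to probes detected on all 18 arrays drops Fam180a and Bglap2. Since the genes were chosen on these differences, the kept sign is no independent check of them. With single replicates left out they ran from 2.18 to 2.41 for Fam180a, 1.48 to 1.67 for Acot1, 0.97 to 1.24 for Fam20a, 0.64 to 0.76 for Bglap2, -2.52 to -1.86 for C1qtnf3 and -2.33 to -2.07 for Nme7. The limma calls over all probes were 6090 for STAC3 RNAi against control RNAi at day 1, 2298 at day 0, 6599 for day 1 against day 0 in control RNAi cells and 7628 in STAC3 RNAi cells. Leaving out single replicates gave 5199 to 5918, 1480 to 1942, 5412 to 6207 and 6895 to 7557 calls in that order, with the lowest day 0 count, 1480, without control RNAi replicate 4. The 6 arrays of lower background alone gave 1929, 9, 2108 and 3003. The non-normalized table, taken by its column names, gave 0, 0, 0 and 589 calls, and 470, 960, 126 and 4959 at an unadjusted p below 0.05. With it, day 0 differences took the opposite sign for Fam180a (-1.661 for ILMN_2833163, -1.438 for ILMN_2771760), Bglap2 (-0.334), Fam20a ILMN_2840430 (0.104), Nme7 (0.191 for ILMN_1214703, -0.119 for ILMN_1220095, 0.113 for ILMN_1259075, 0.19 for ILMN_2510694) and Acot1 (-0.165 for ILMN_3062267, -0.283 for ILMN_3139875). In control RNAi cells over the day they did so for Fam20a (0.336 for ILMN_1218877, 0.141 for ILMN_2840430) and Nme7 (-0.311 for ILMN_1259075, -0.281 for ILMN_2510694, -0.421 for ILMN_1214703, 0.313 for ILMN_1246498, -0.1 for ILMN_2630618), in STAC3 RNAi cells for C1qtnf3 (-0.599 for ILMN_2863849, -0.66 for ILMN_2593034), and at day 1 for Nme7 ILMN_2630618 (0.071). With that table the day calls of the leading probes of C1qtnf3, Bglap2 and Nme7 in control RNAi cells were lost. So were those of Bglap2, Fam20a, Acot1 and Nme7 in STAC3 RNAi cells. Fam180a, not tested over the day, is left out here. On the 6 arrays alone Nme7 ILMN_1220095 at day 0 came to -0.018. The cause was not tested. The 2 array sets were separated after seeing the data. With the replicate number as a block the counts were 6363, 2387, 6679 and 7942, and the calls it changed among the 6 genes were those given above plus Nme7 ILMN_1246498 in STAC3 RNAi cells over the day (0.19, adjusted p = 0.0163). On the 6 arrays, with 1 day 0 array of each group, differences over the day are given as sizes only. In control RNAi cells they were 0.554 for C1qtnf3, 0.44 for Bglap2 and 0.518 for Nme7 by leading probes. In STAC3 RNAi cells they were 0.44 for Acot1 and -0.541 for Nme7. On the 12 arrays Bglap2 in control RNAi cells was lost (0.153, adjusted p = 0.152). Fam180a and Bglap2 at day 0 lie at the detection level, so their day 0 differences could not be measured well.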

Other observations

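The chromosomal neighbours of the 6 genes were looked at for shared differences. Rai14, the gene before C1qtnf3 on chromosome 15, rose at day 1 (0.66, limma adjusted p = 0.00105) while C1qtnf3 was lower. Slc13a4 next to Fam180a fell by 0.16 (adjusted p = 0.0117), and Mtpn on its other side was at 0.06 (adjusted p = 0.75). Prkar1a next to Fam20a was at 0.03 (adjusted p = 0.891) and Blzf1 before Nme7 at -0.13 (adjusted p = 0.0991). Among the neighbours measured, Atp1b1 was the one with a difference past 1 on the log2 scale.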
